A study of Homo sapiens with 6 samples.

Results

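The regions described here are the H3K4me3 and H3K27me3 intervals called near the start sites of TBX2, TBX3, TBX4, TBX5 and LHX5 in H1299 cells, an established non-small cell lung cancer line derived from a lymph node metastasis. H3K4me3 and H3K27me3 are histone H3 trimethylated at lysine 4 and at lysine 27, and both were mapped by chromatin immunoprecipitation and sequencing. The series compares cells given 5 mM metformin, a glucose-lowering biguanide, with cells given none, and both groups are this 1 line with no genetic change named in the labels. It holds 6 samples: 1 H3K4me3, 1 H3K27me3 and 1 input library for metformin-treated cells, and the same 3 for control cells. Peak lists of the 4 ChIP libraries form the data, and the input libraries were not used here. With 1 library per mark and condition there is no replicate error and no test between conditions, and read depth is unknown because the lists hold no counts. All differences below are therefore differences between 2 lists.

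Members were chosen by position: every interval within 20 kb of 1 of the 5 start sites, on the build hg19, after lines with the same interval had been joined. LHX5 was included because it was known to carry both marks in control cells, so its overlap of the marks there is a description of what chose it. The rule found 67 of the 275570 intervals in the 4 lists. H3K4me3 gave 22 of 53454 intervals in metformin cells and 16 of 50585 in control cells, and H3K27me3 gave 16 of 85952 in metformin cells and 13 of 85579 in control cells. The start sites are chr17:59477257 for TBX2 and chr17:59533807 for TBX4, both on the plus strand, and chr12:115121969 for TBX3, chr12:114846247 for TBX5 and chr12:113909877 for LHX5, all on the minus strand. Positions given in bp or kb from a start site run in the direction of transcription and are negative upstream. At the edge of the windows, the outermost LHX5 interval inside was the control H3K27me3 interval from −21187 to −18378 bp, which crosses the limit. The first one outside was a metformin H3K27me3 interval that began 20320 bp upstream.

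T-box proteins are transcription factors that bind DNA through a shared T-box domain. TBX2 and TBX4 lie next to each other on chromosome 17 and TBX3 and TBX5 on chromosome 12, an arrangement that arose by duplication of an ancestral pair. TBX2 and TBX3 act mainly as repressors, can restrain senescence and are expressed in several tumours, whereas TBX4 and TBX5 act mainly as activators. In the mouse all of them are expressed in the mesenchyme of the developing lung, where Tbx4 and Tbx5 are needed for lung bud growth and branching. LHX5 is a LIM homeodomain factor of the developing forebrain and spinal cord. H3K4me3 is typical of active or poised promoters, and H3K27me3 is laid down by Polycomb repressive complex 2 at developmental genes that are switched off.

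On both chromosomes, 1 gene of the neighbouring pair carried H3K4me3 and the other did not. TBX2 and TBX3, the repressors, carried H3K4me3 around their start sites in both conditions. TBX4 and TBX5, the activators, had no H3K4me3 interval within 20 kb in either condition and no H3K27me3 interval nearer than 9869 bp. LHX5 lay in a long stretch of H3K27me3 with H3K4me3 inside it. The map of called intervals shows these 3 forms.

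**Figure D1:**
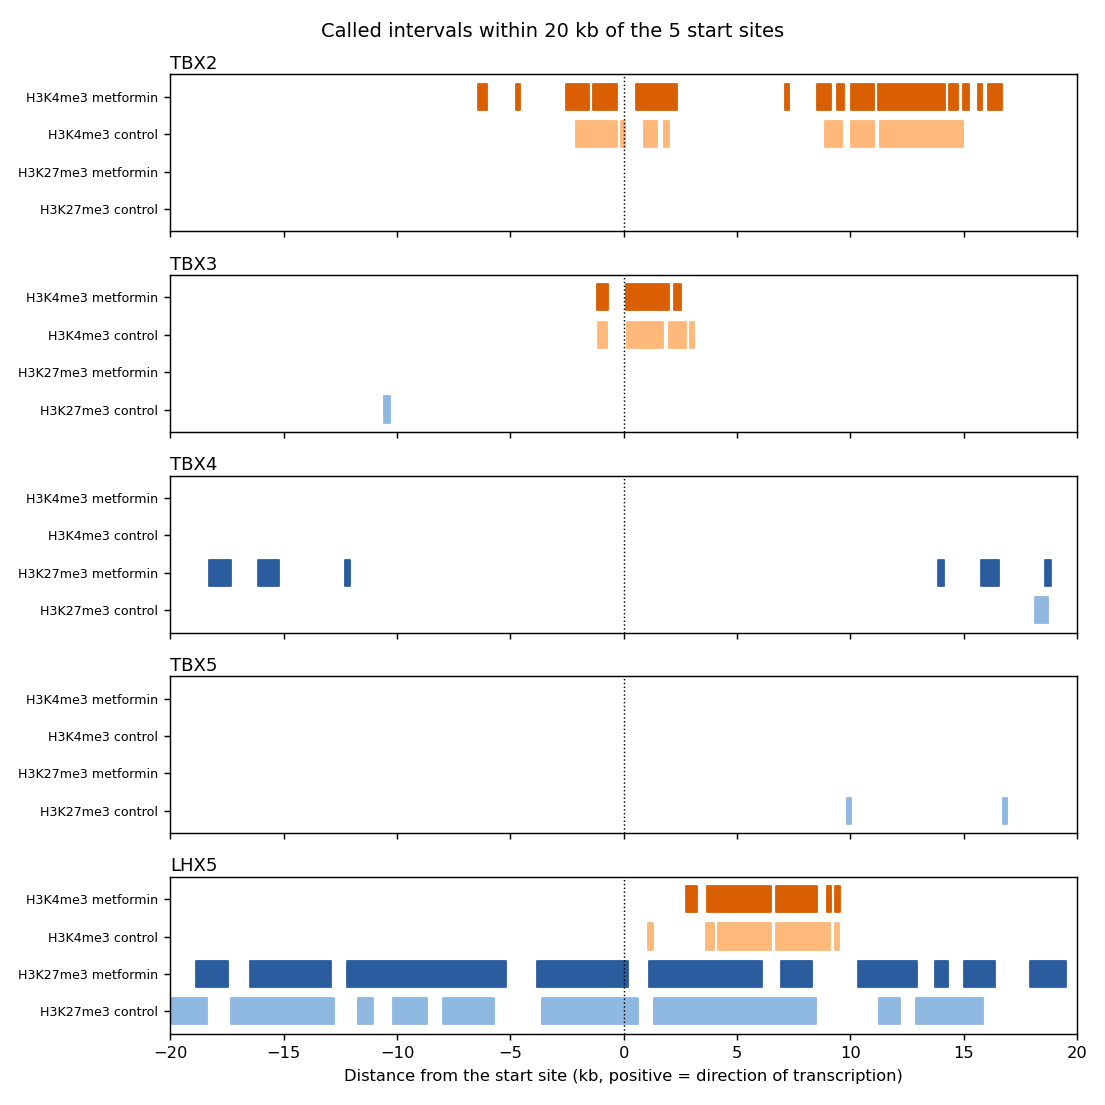
Intervals called within 20 kb of each start site, drawn to scale by distance from the start in kb, with a row for each of the 4 lists. H3K4me3 (orange) lies around the starts of TBX2 and TBX3 and is absent from the TBX4 and TBX5 windows. The LHX5 window is mostly covered by H3K27me3 (blue) in both conditions.

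The sequences just upstream of TBX4 and TBX5, the genes without H3K4me3 within 20 kb, show that both promoters hold CpG dinucleotides. CpG is the substrate of DNA methylation, and H3K4me3 is usually found where it is dense. The sequences are RefSeq promoter sequences on GRCh38.p14, matched by symbol. Of the 5 genes, 2 were matched, TBX4 and TBX5, and TBX2, TBX3 and LHX5 were not. The TBX4 sequence is chr17:61456238-61456487 (plus strand) and the TBX5 sequence, the outer of 2 annotated starts, is chr12:114408443-114408692 (minus strand). Each ends 1 base before the annotated start, reads 5′ to 3′, and has every CpG in capitals.
TBX4: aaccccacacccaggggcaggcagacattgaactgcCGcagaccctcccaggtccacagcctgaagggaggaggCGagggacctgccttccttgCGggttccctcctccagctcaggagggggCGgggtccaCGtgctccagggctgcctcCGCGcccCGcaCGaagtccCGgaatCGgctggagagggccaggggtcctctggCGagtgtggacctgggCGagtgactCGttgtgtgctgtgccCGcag
TBX5: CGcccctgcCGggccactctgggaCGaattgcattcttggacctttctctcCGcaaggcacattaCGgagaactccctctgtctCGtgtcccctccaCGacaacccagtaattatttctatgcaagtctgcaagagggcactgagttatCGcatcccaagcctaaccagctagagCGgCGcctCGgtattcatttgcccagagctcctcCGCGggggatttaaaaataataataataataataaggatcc

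Over these 250 bases TBX4 has 15 CpG at 68.8% G+C and TBX5 has 13 at 51.2% G+C. The median of 35114 RefSeq promoters is 11 CpG at 58% G+C. The ratio of observed to expected CpG is 0.508 for TBX4 and 0.818 for TBX5, against a median of 0.558. The inner TBX5 start has 20 CpG and a ratio of 0.994. For TBX4, 42.9% of the promoters hold as many CpG or more and 52.8% have as high a ratio. For the outer TBX5 start these shares are 46.6% and 28.3%, and for the inner one 32.4% and 8.87%. Of 13 other T-box genes, 12 were matched, with 16 promoters that hold 2 to 31 CpG and a median of 18. The T-box core GGTGTGA, searched on both strands, is in neither of the printed sequences and in 2.76% of the promoters. The letters TATAAA, also searched on both strands, are in neither and in 10.7% of them. These counts describe the sequence only. The annotated starts were not matched to the hg19 start sites, over which no interval of either mark was called at these genes.

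TBX2 had the longest H3K4me3 coverage of the 5 genes within 20 kb of the start. Within 10 kb, LHX5 had more than TBX2 in control cells, 5435 bp against 3543 bp. In metformin cells it had 5485 bp there against 5532 bp at TBX2. The TBX2 window of 20 kb to each side held 10.9 kb of H3K4me3 in 14 metformin intervals and 8.15 kb in 7 control intervals. The metformin length was 1.34 times the control length. Among 40 kb tiles of the genome that carried the mark, 2.36% in the metformin list and 4.81% in the control list had as much or more. The windows are centred on start sites and the tiles are not, so these ranks are descriptions. No H3K27me3 was called in the window in either condition, and the nearest lay 21.2 kb downstream of the start in metformin cells and 21.9 kb in control cells.

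The mark at TBX2 fell into a part around the start and a part 7 to 17 kb downstream. Just upstream of the start, metformin cells had 2 intervals, from −2540 to −1513 bp and from −1340 to −313 bp, and control cells had 1 from −2103 to −313 bp. All of them thus lay on the same stretch, and the 2 lists ended it on the same base. The metformin interval chr17:59475917-59476944 had the highest deposited value of the window, a −log10 q of 29.4, and the control interval chr17:59475154-59476944 had 16.4. These values, read as −log10 q of the peak caller, depend on library depth and are not levels of the mark. At the start itself, control cells had a 181 bp interval from −120 to 60 bp (−log10 q 6.66), and metformin cells had a gap of 832 bp, from which no interval was called. Past the start, 1 metformin interval from 520 to 2362 bp took in the place of 2 control intervals, from 916 to 1463 bp and from 1760 to 2003 bp.

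The downstream part was the longer. Its widest metformin interval ran from 11222 to 14167 bp (chr17:59488479-59491424, 8 sub-peaks, −log10 q 21.9) and its widest control interval from 11326 to 14948 bp (chr17:59488583-59492205, 10 sub-peaks, −log10 q 27.3). The metformin interval was wider than 92.2% of its list. The control interval had the highest value of the control window and was wider than 96.5% of its list. An interval from 10043 bp was found in both, ending at 11022 bp in metformin cells and at 11024 bp in control cells. From 10 to 15 kb the mark covered 4332 bp in metformin cells and 4605 bp in control cells. The RefSeq gene order places the long non-coding RNA gene LINC02875 between TBX2 and TBX4, and its position on hg19 was not used here. The longer metformin coverage of the window came from every other 5 kb zone that held the mark. The largest differences were 1016 bp in metformin cells against 0 bp in control cells from 15 to 20 kb, and 1843 bp against 853 bp in the first 5 kb past the start. Smaller ones were 370 bp against 0 bp from −10 to −5 kb, 2218 bp against 1911 bp from −5 to 0 kb, and 1101 bp against 779 bp from 5 to 10 kb. Of the 6 metformin intervals with no control partner, all had −log10 q values of 1.84 to 4.34, in the lower 35.9% of their list, and widths of 162 to 619 bp.

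TBX3 carried a smaller domain. It had 2.72 kb of H3K4me3 in 3 metformin intervals and 2.92 kb in 4 control intervals, 0.931 times as much, close to the median of marked tiles (2727 bp in the metformin list and 2480 bp in the control list). The main interval lay just past the start, from 106 to 2014 bp in metformin cells (chr12:115119955-115121863, −log10 q 10.2) and from 132 to 1743 bp in control cells (chr12:115120226-115121837, −log10 q 6.50). A shorter one lay upstream, from −1158 to −676 bp in metformin cells and from −1116 to −734 bp in control cells. Between them the start site itself was free of called H3K4me3 over 781 bp in metformin cells and 865 bp in control cells. Another interval lay from 2196 to 2519 bp in metformin cells (−log10 q 11.2) and from 1997 to 2744 bp in control cells (−log10 q 7.69). The fourth control interval, of 175 bp, had no metformin partner. H3K27me3 was absent from the metformin list over the whole window, and the control list held 262 bp of it 10.3 kb upstream, at a −log10 q of 1.32.

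**Figure D2:**
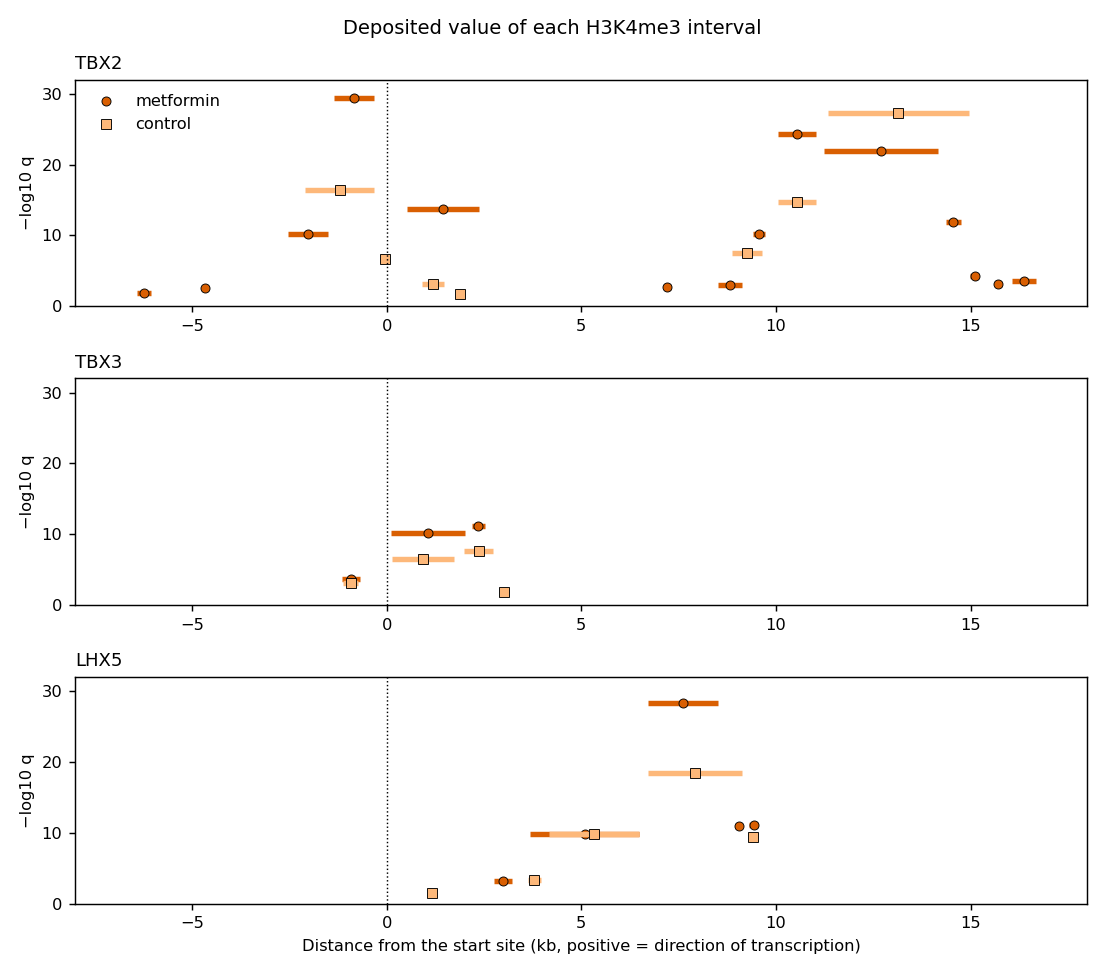
Deposited −log10 q of each H3K4me3 interval (lines span the interval, symbols mark its middle) against distance from the start in kb, for metformin (dark, circles) and control (light, squares) lists. TBX2 has intervals above 10 upstream of the start and again 10 to 15 kb downstream in both lists, and just past the start in the metformin list alone, TBX3 stays under 12, and those of LHX5 all lie downstream of its start.

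TBX4 had no H3K4me3 in its window. The nearest interval of that mark was 39.9 kb upstream in metformin cells and 41.6 kb upstream in control cells. Both lie in the downstream part of the TBX2 window described above, which was not assigned to a gene. H3K27me3 was scattered and away from the start: 3.43 kb in 6 metformin intervals and 0.607 kb in 1 control interval, which is 5.65 times as much. Of the marked tiles, 42.1% in the metformin list and 80.0% in the control list had as much or more. The metformin intervals were 215 to 972 bp wide at −log10 q values of 1.21 to 1.95. They lay from −18312 to −12079 bp and from 13877 to 18845 bp, so that 25955 bp around the start were free of the mark. The control interval lay from 18128 to 18734 bp (−log10 q 1.24), and 140 bp of it were shared. With only values at or above the median of each list, 491 bp were left in metformin cells and 0 bp in control cells. Within 10 kb of the start neither list held any. As background, 30.6% of the 40 kb tiles with at least 1000 bp of H3K27me3 in either list had 1.5 times as much or more in the metformin list, and 20.2% had that much more in the control list. With any coverage the shares were 35.4% and 26.7%.

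TBX5 was the emptiest of the windows. No interval of either mark was called there in metformin cells. Control cells had 2 H3K27me3 intervals of 164 and 172 bp, from 9869 to 10032 bp and from 16744 to 16915 bp, at −log10 q values of 1.26 and 1.33. The shortest H3K27me3 interval in the whole metformin list was 166 bp and in the control list 159 bp. The interval of 164 bp is thus shorter than any in the metformin list, and that of 172 bp is not. Why neither was called in metformin cells was not tested. The nearest H3K4me3 was 273 kb upstream in both conditions, at TBX3. Both lists thus gave TBX4 and TBX5 neither an H3K4me3 domain nor an H3K27me3 domain over the start, and at unknown depth a weak mark may not have been called.

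LHX5 differed from all 4 T-box genes in being covered by H3K27me3 over most of its window. It was chosen as a site of both marks in control cells, so this contrast and the tile ranks below are descriptions only. H3K27me3 took 28.4 kb in 10 metformin intervals (71.1% of the window) and 25.9 kb in 9 control intervals (64.7%), 1.10 times as much. Of the marked tiles, 0.828% in the metformin list and 1.08% in the control list had as much. The start site was under H3K27me3 in both, in an interval from −3828 to 169 bp in metformin cells (chr12:113909708-113913705, −log10 q 2.21) and from −3628 to 649 bp in control cells (chr12:113909228-113913505, −log10 q 2.11). The widest metformin interval, 6979 bp, lay upstream from −12192 to −5214 bp, where control cells had 3 intervals of 672 to 2249 bp. The widest control interval, 7146 bp, lay downstream from 1343 to 8488 bp, where metformin cells had 2, of 4982 and 1370 bp. Long intervals were thus divided differently in the 2 lists over much of the same sequence. Of the covered bases, 73.0% in metformin cells and 80.2% in control cells were shared.

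H3K4me3 at LHX5 was not at the start site. All of it lay downstream, nearest at 2768 bp in metformin cells and at 1069 bp in control cells, and none was called upstream. It covered 5.49 kb in 5 metformin intervals and 5.44 kb in 5 control intervals, 1.01 times as much. The highest interval ran from 6704 to 8516 bp in metformin cells (chr12:113901361-113903173, −log10 q 28.3) and from 6723 to 9119 bp in control cells (chr12:113900758-113903154, −log10 q 18.5). The next one began on the same base, chr12:113903387, and was 2815 bp wide in metformin cells (−log10 q 9.89) and 2315 bp wide in control cells (−log10 q 9.79). The lists differed at the edge towards the start: metformin cells had an interval from 2768 to 3231 bp with no control partner, and control cells had one from 1069 to 1269 bp (−log10 q 1.58) with no metformin partner.

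**Figure D3:**
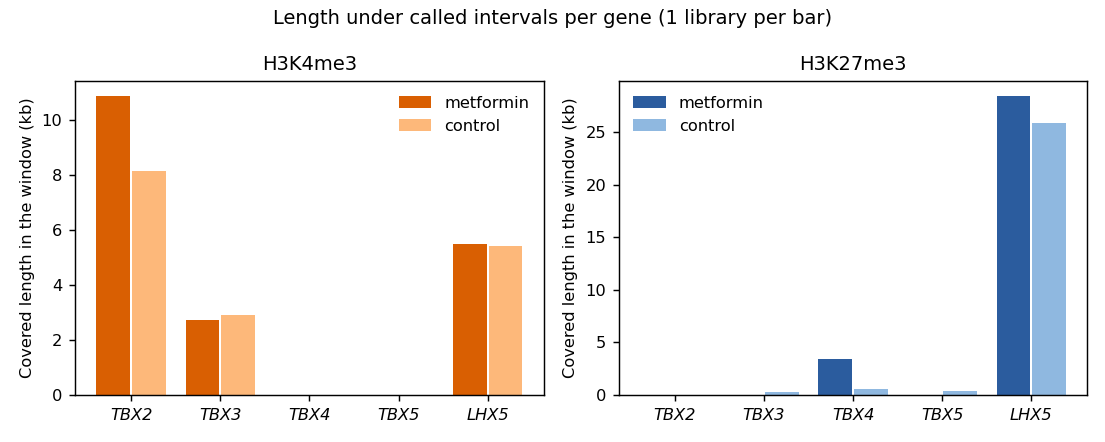
Length under called intervals in each 40 kb window, in kb, for H3K4me3 (left) and H3K27me3 (right), with the metformin bar left of the control bar and 1 library per bar. H3K4me3 is longest at TBX2, and H3K27me3 at LHX5 exceeds 25 kb in both conditions.

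The marks met on the same bases at LHX5 and at none of the T-box genes. There, 4268 bp lay under both in metformin cells and 4424 bp in control cells, or 77.8% of the H3K4me3 length of the window in metformin cells and 81.4% in control cells. In each condition 3 of the 5 H3K4me3 intervals were touched by H3K27me3, against 4.55% of all metformin intervals and 2.78% of all control intervals. The control overlap is what placed LHX5 in the list, and the metformin overlap lies at the same chosen site. Nothing is therefore read from the contrast with the T-box genes, from these shares or from the tile medians below. The overlap lay from 2768 to 8299 bp in metformin cells and from 3626 to 8488 bp in control cells, in 3 pieces each, and 3597 bp of it were the same in both. Among tiles with any overlap, the median was 522 bp in the metformin list and 402 bp in the control list. With metformin H3K4me3 set on control H3K27me3 the overlap was 5064 bp, and with control H3K4me3 set on metformin H3K27me3 it was 3789 bp. Each library is a population of cells, so a shared base does not tell whether both marks sat on the same molecule.

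Across the 5 windows, H3K4me3 covered 19081 bp in metformin cells and 16501 bp in control cells. TBX2, TBX3 and LHX5 each stayed within 1.5 times between the lists. With windows of 10 kb to each side TBX2 passed that limit, at 5532 bp in metformin cells and 3543 bp in control cells. Of all tiles with H3K4me3, 24% had at least 1.5 times as much in the metformin list and 10.3% in the control list. Among tiles with at least 1000 bp these shares were 15.7% and 3.12%, so most such tiles also stayed within the limit. H3K27me3 covered 31868 bp in metformin cells and 27099 bp in control cells. TBX4 gave 3432 bp in metformin cells and 607 bp in control cells, and LHX5 gave 28436 bp and 25894 bp. TBX3 and TBX5 had 0 bp in metformin cells, and 262 bp and 336 bp in control cells. With windows of 50 kb to each side the order of the sums was the other way, with 55169 bp in metformin cells and 55453 bp in control cells. Over the whole lists the ratios of covered length were 1.12 for H3K4me3 and 1.09 for H3K27me3.

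Most intervals of each mark had a partner, for H3K27me3 mainly at LHX5. For H3K4me3, 15 of 22 metformin intervals (68.2%, exact Clopper-Pearson 95% interval 45.1 to 86.1) were overlapped by the control list, against 67.3% of the whole list. Of the 16 control intervals, 13 (81.2%, 54.4 to 96.0) were overlapped by the metformin list, against 77.3%. Both shares were near those of their lists. For H3K27me3, 10 of 16 metformin intervals (62.5%, 35.4 to 84.8) and 10 of 13 control intervals (76.9%, 46.2 to 94.96) had a partner, against 46.3% and 48.3% of the lists. At LHX5 it was 9 of 10 metformin and 9 of 9 control intervals. At the T-box genes it was 1 of 6 metformin intervals, at TBX4, and 1 of 4 control intervals. LHX5 was chosen as a site of both marks in control cells. Nothing is therefore read from the H3K27me3 shares against those of the lists. Neighbouring intervals of 1 gene are not independent, and the exact intervals cover counting error only.

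**Figure D4:**
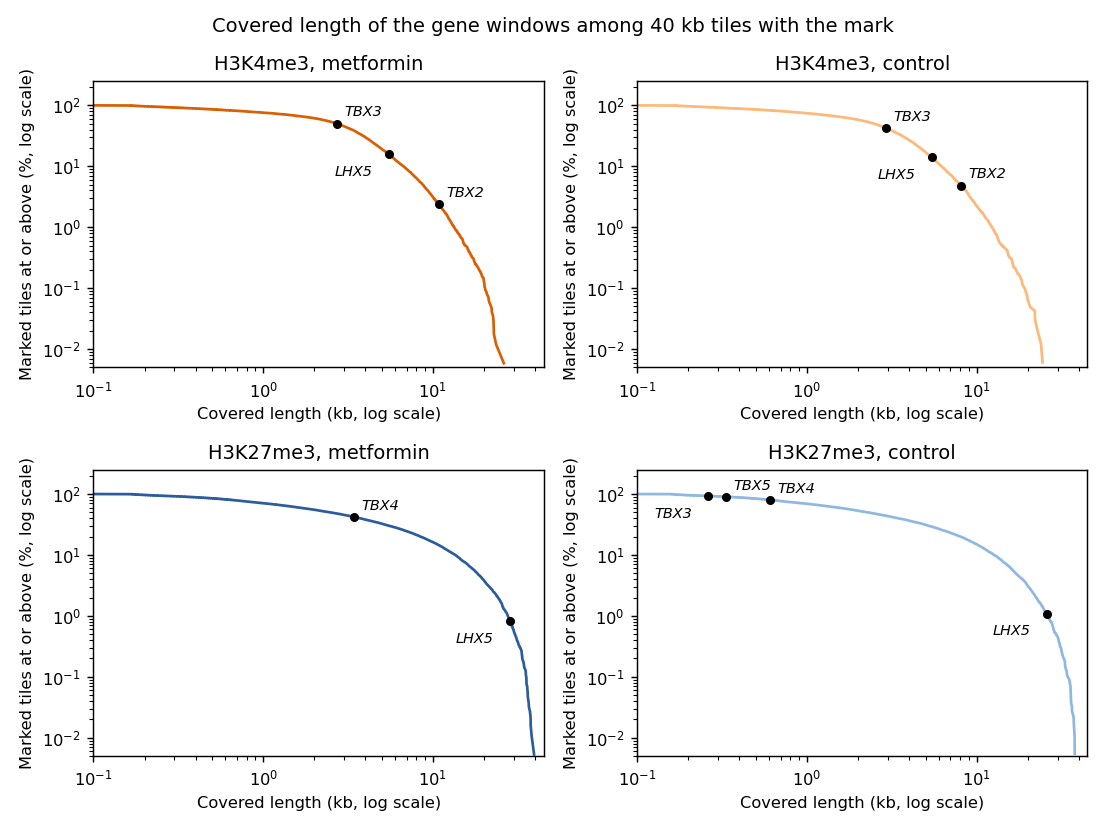
Share of marked 40 kb tiles (log scale, %) with at least a given covered length (log scale, kb), for each list, with the gene windows as black points where they hold the mark. LHX5 sits far out for H3K27me3 in both conditions, and for H3K4me3 TBX2 lies furthest out and TBX3 near the median.

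Between LHX5 and the TBX5 and TBX3 pair on chromosome 12, H3K27me3 came in 2 blocks and then nearly stopped. In bins of 100 kb counted from the LHX5 start towards TBX5, against the direction of LHX5 transcription, it covered 56.6 kb in metformin cells and 53.5 kb in control cells in the first bin. In the second bin it covered 31.5 kb in metformin cells and 46.9 kb in control cells, the largest difference between the lists among the 15 bins. It thinned to 1.42 kb in metformin cells and 1.20 kb in control cells from 400 to 500 kb and then covered 46.6 kb in metformin cells and 46.2 kb in control cells from 500 to 600 kb. TBX5 starts 936 kb from LHX5, and the bin that holds it had 0.221 kb in metformin cells and 3.32 kb in control cells. The bin of the TBX3 start, from 1200 to 1300 kb, had 0 kb in metformin cells and 0.262 kb in control cells. This stretch was chosen after its values were seen.

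**Figure D5:**
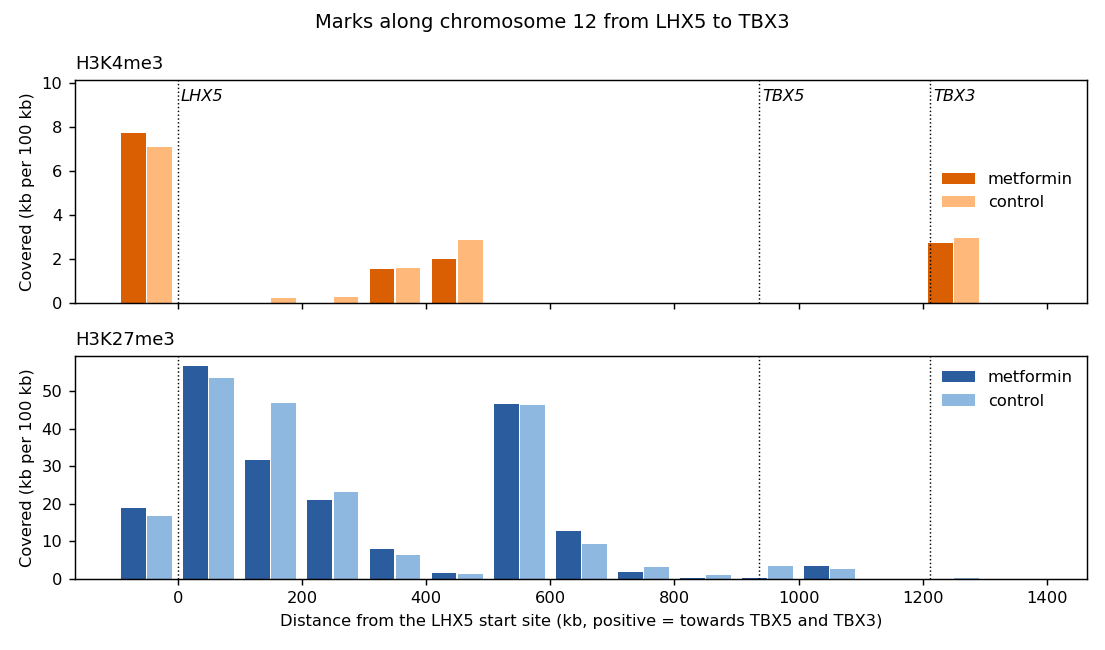
Covered length per 100 kb bin (kb) of H3K4me3 (top) and H3K27me3 (bottom) from 100 kb before the LHX5 start to past TBX3, metformin bars left of control bars, with dotted lines at the 3 starts. H3K27me3 is high next to LHX5 and from 500 to 600 kb and low at TBX5 and TBX3.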

How the data were processed

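Chromatin of H1299 cells was cross-linked, cut with micrococcal nuclease and precipitated with an antibody against each mark, per the labels' protocols. Reads were handled with Trimmomatic 0.38, Bowtie and MACS2 on hg19, per the submitters' processing notes. Neither the options nor the background library is given in the sources used here. The deposited value of each peak was read as −log10 q from the values: H3K4me3 lists start at 1.31 and H3K27me3 lists at 1.00 and 1.01, just above the −log10 of q = 0.05 (1.30) and of q = 0.1 (1). The authors called each list on 1 library.

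Lines with the same interval were joined, keeping the highest value. Lengths were clipped to windows of 20 kb to each side of a start site, which were given on hg19. An overlap needed 1 bp. As background, chromosomes 1 to 22 and X were cut into 75857 tiles of 40 kb up to the last interval. Overlap code was checked against a base-by-base count, on control intervals of 1 chromosome and a randomly thinned, shifted copy of them. The members and lists were chosen with earlier results of these data known. In each window the interval over or nearest the start and the widest of each list were to be named, and others were named after their values were seen. Intervals at other T-box and LIM homeobox genes and at markers of lung cells were not analysed, for want of a gene table on hg19. Other T-box genes entered the comparison of promoter sequences. Depth per library is unknown, so precision is given for shares only. Software: tables were handled with pandas 2.3.3 and numpy 2.4.6 in Python 3.11.15, exact intervals came from scipy 1.17.1, and matplotlib 3.10.9 drew the plots.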

Additional observations from a re-analysis of the deposited data

How the results depend on the processing

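No paired analysis was possible because each mark had a single library in each condition, which also left no replicate to omit. The alternatives were windows of 10 and 50 kb to each side, values at or above the median of each list, intervals within 1 kb merged, and, for shares, an overlap of at least 50% of the interval. Summed over the 5 windows, H3K4me3 covered more in metformin than in control cells under each of the 4 settings for length. At 20 kb this came from TBX2, with 10880 bp in metformin cells and 8148 bp in control cells. LHX5 was nearly equal (5485 bp and 5435 bp), and TBX3 had less in metformin cells (2716 bp and 2918 bp). H3K27me3 covered length was 15137 bp in metformin cells and 15109 bp in control cells at 10 kb, and 55169 bp and 55453 bp at 50 kb, so the metformin excess at 20 kb was not seen at 50 kb and nearly vanished at 10 kb. It was also found at or above the median value (27341 bp in metformin cells and 24975 bp in control cells) and with merging (36870 bp and 30094 bp). The length under both marks was 5532 bp in metformin cells and 5064 bp in control cells with merging, the reverse of the order without it (4268 bp and 4424 bp). At or above the median value, 92.3% of 13 metformin H3K4me3 intervals and 100% of 8 control H3K27me3 intervals had a partner, and at 10 kb 100% of 4 metformin H3K27me3 intervals did. The cause was not tested. Of 44 such values for the 5 windows together, 37 stayed within 1.5 times or within the exact interval. Each was set against the same list's value in the main setting, so the count does not bear on metformin against control. The exact intervals are also wide. Of 60 covered lengths of single genes, 48 stayed within 1.5 times and 12 did not. The 48 include lengths that were 0 bp in the main setting. These were H3K27me3 at TBX2, H3K4me3 at TBX4 and TBX5, and metformin H3K27me3 at TBX3 and TBX5. A window of 10 kb, the value limit or merging could not change them, so the count does not measure stability there.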
